A study of Mus musculus with 18 samples.

Results

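The genes described here encode the proteins of the mitochondrial ribosome in mouse 3T3-L1 cells, a fibroblast-like preadipocyte line that turns into lipid-filled adipocytes when it is given a hormone cocktail. The members were all protein-coding genes whose symbol starts with Mrps (small subunit names) or Mrpl (large subunit names) followed by a digit. The deposited tables listed 74 of them, 27 Mrps and 47 Mrpl genes, among 12666 protein-coding genes and 15194 genes in all. RefSeq holds 78 genes under the same rule, and the other 4 (Mrpl13, Mrpl53, Mrps10 and Mrps33) were not analysed here. The 18 RNA-seq libraries fell into 6 groups of 3, made from total RNA of MLKL-/-, RIPK3-/- and control (CTL) cells, each kept untreated (J0) or differentiated (J7). MLKL and RIPK3 are the pore-forming effector and the kinase of necroptosis, a lytic form of programmed cell death. The 6 groups are J7 MLKL-/-, J7 RIPK3-/-, J7 CTL, J0 MLKL-/-, J0 RIPK3-/- and J0 CTL. How the knockouts were made, whether each is 1 clone and whether replicate libraries came from separate cultures are not given in the sources used here. The p-values therefore measure only the spread between these libraries, which may be technical.

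The mitochondrial ribosome translates the respiratory chain subunits that are encoded in mitochondrial DNA, and its ribosomal RNAs are encoded there too. All its proteins come from nuclear genes, are made on cytosolic ribosomes and are imported. Some have bacterial counterparts, and others are found only in mitochondrial ribosomes. Adipocytes gain mitochondria and respiratory capacity as they differentiate. The names do not follow the structure in every case, since the Mrps30 and Mrps18a proteins sit in the large subunit, and Mrps36 is a component of the 2-oxoglutarate dehydrogenase complex.

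Each library held between 20.2 M and 36.9 M reads assigned to genes. The tables list a gene only where a comparison passed the authors' adjusted p of 0.05, so the number of members with counts differed by group: 31 in J7 MLKL-/-, 72 in J7 RIPK3-/-, 74 in J7 CTL, 3 in J0 MLKL-/-, 73 in J0 RIPK3-/- and 73 in J0 CTL libraries. Only 2 members, Mrps6 and Mrps35, had counts in all 18 libraries. The genotype characteristic of the 6 J7 knockout libraries names the other knockout, and the groups follow the sample titles. Transcripts of the targeted genes were present in every library. Mlkl averaged 15.1 ± 1.24 CPM (counts-per-million, over the reads assigned to genes) in J7 MLKL-/- and 26.3 ± 1.10 CPM in J7 CTL libraries, and 8.05 ± 1.45 CPM in J0 MLKL-/- and 18.9 ± 0.793 CPM in J0 CTL libraries (SD, n = 3 each). Ripk3 averaged 10.9 ± 0.750 CPM in J7 RIPK3-/- and 18.3 ± 0.842 CPM in J7 CTL libraries, and 15.9 ± 1.31 CPM in J0 RIPK3-/- and 18.2 ± 1.403 CPM in J0 CTL libraries (SD, n = 3 each). Ripk3 was also lower in J7 MLKL-/- libraries, at 9.23 ± 2.40 CPM (SD, n = 3), so transcript level does not tell the knockouts apart. Adipocyte markers were present in all 3 differentiated groups: the 12 markers summed to 3862 to 6036 CPM in J7 MLKL-/-, 25797 to 28056 CPM in J7 RIPK3-/- and 23308 to 24471 CPM in J7 CTL libraries. In the undifferentiated libraries the same sum was 400 to 507 CPM for MLKL-/-, 345 to 354 CPM for RIPK3-/- and 291 to 298 CPM for CTL. J7 MLKL-/- library 3 and J0 MLKL-/- library 2 stood apart from their group, with a chi-square of 225 to 235 and of 52.0 to 59.2 per gene against their partners, where the other pairs of libraries within a group gave 2.86 to 8.15.

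Promoters are shown for 6 members, because their transcripts range from no rise to the largest rise in CTL cells and because 3 of the searched motifs occur among them. Each sequence is the 250 bases before the annotated start from RefSeq, build GRCm38.p6, which has the coordinates of mm10, written 5′ to 3′ on the strand of the gene. Capitals mark a match to CCGGAAGT, the core bound by ETS-family factors such as GABP, to GCGCATGCG, bound by NRF1, or to AAGATGGCG, bound by YY1, on either strand. No other letters of these windows matched these motifs, the ERR motif TCAAGGTCA or the E-box CACGTG. Mrps22 (chr9:98601680-98601929, minus strand) and Mrpl51 (chr6:125191950-125192199, plus strand) rose on differentiation and hold the ETS core at -11 and -90, counted from the start. Mrps18b (chr17:35916441-35916690, minus strand) rose and holds the NRF1 motif at -224, read on the other strand. Mrps11 (chr7:78782881-78783130, plus strand) rose less and holds the YY1 motif at -108, also on the other strand. Mrpl12 (chr11:120484387-120484636, plus strand) had the largest rise of all members and no match. Mrps6 (chr16:92058086-92058335, plus strand) did not rise and had none either. Of members not shown, Mrpl23 fell and Mrps2 rose, both without a match, and Mrpl20 rose with only an E-box, at -33.
Mrps22: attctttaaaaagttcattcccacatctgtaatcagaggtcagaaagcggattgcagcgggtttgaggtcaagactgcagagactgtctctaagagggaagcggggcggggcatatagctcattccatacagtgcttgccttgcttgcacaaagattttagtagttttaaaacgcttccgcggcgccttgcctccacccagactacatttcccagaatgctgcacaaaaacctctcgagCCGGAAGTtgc
Mrpl51: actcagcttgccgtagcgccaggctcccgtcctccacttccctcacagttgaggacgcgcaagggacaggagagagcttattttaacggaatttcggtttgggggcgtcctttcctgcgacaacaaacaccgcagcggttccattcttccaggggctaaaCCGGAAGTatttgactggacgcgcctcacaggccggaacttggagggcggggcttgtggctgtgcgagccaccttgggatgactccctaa
Mrps18b: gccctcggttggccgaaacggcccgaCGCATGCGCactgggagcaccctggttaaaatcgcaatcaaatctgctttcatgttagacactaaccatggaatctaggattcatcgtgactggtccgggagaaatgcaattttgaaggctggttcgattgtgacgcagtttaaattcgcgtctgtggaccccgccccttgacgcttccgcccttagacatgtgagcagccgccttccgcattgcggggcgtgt
Mrps11: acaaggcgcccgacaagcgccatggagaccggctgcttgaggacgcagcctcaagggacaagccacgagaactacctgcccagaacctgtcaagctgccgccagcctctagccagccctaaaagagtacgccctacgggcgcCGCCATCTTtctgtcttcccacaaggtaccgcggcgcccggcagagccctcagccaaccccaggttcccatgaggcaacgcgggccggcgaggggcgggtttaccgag
Mrpl12: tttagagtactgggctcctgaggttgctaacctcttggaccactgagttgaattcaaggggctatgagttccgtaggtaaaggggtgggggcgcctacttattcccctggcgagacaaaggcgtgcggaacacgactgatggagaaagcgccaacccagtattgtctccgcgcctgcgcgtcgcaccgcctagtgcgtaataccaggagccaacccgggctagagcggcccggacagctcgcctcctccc
Mrps6: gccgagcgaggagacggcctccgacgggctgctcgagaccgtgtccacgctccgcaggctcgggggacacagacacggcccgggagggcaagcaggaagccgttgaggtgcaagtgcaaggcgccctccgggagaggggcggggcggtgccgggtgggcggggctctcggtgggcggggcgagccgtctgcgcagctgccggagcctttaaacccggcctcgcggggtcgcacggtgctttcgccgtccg

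Of the 74 members, 66 had a RefSeq promoter, and these were searched in the window from 250 bases before to 50 after the start. The ETS core occurred in 11 of the 66 (16.7%), against 8.10% of 9792 promoters of listed protein-coding genes and 4% of all 27025 promoters. The NRF1 motif occurred in 7 (10.6%), against 3.70% and 1.81%, and the YY1 motif in 8 (12.1%), against 3.07% and 1.49%. The E-box occurred in 5 (7.58%), against 10.0% and 7.24%, and the ERR motif in none, against 0.235% and 0.407%. At least 1 of the 5 motifs was found in 27 members (40.9%), against 22.4% of the listed and 13.8% of all promoters. That share was 35.5% for 62 respiratory chain subunits and 34.5% for 55 cytosolic ribosomal proteins. In the same order, the ETS core occurred in 6.45% and 20% of these, the NRF1 motif in 12.9% and 3.64%, and the YY1 motif in 9.68% and 5.45%. A match is a string of letters and was not tested as a binding site.

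Expression of the members spanned a wide range before differentiation, given here as FPKM, which corrects for gene length. The mitochondrial ribosomal protein with the highest level was Mrps6, a counterpart of a bacterial small subunit protein, at 166 ± 3.09 FPKM in J0 RIPK3-/- and 155 ± 11.9 FPKM in J0 CTL libraries (SD, n = 3 each). The Mrps6 level carries a limit, since its span holds the gene Slc5a3 on the same strand. Mrpl34 was the highest of the large subunit names, at 60.6 ± 5.79 FPKM in J0 RIPK3-/- and 59.6 ± 1.87 FPKM in J0 CTL libraries. The lowest were Mrpl48, at 2.21 ± 0.0592 FPKM in J0 RIPK3-/- and 1.98 ± 0.0628 FPKM in J0 CTL libraries, and Mrps30 and Mrps23, at 2.81 ± 0.0751 and 3.23 ± 0.191 FPKM in J0 CTL libraries. Median levels were close between J0 RIPK3-/- and J0 CTL libraries, at 10.0 and 9.46 FPKM for the small subunit names and 14.2 and 14.6 FPKM for the large ones. In the differentiated cells the medians were 24.5 FPKM in J7 RIPK3-/- and 21.2 FPKM in J7 CTL libraries for the small subunit names, and 27.8 and 27.3 FPKM for the large ones. Mrps6, Mrps21 and Mrps7 led the small subunit names and Mrpl34, Mrpl2 and Mrpl12 the large ones in both J7 groups. Levels in J7 MLKL-/- libraries exist for 31 members only, with medians of 9.79 FPKM for 11 small and 17.0 FPKM for 20 large subunit names, so they cannot be set beside the medians above.

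Nearly the whole set was higher after differentiation, in RIPK3-/- and in CTL cells. In RIPK3-/- cells 70 of 72 members rose and 2 fell (edgeR's quasi-likelihood test, Benjamini-Hochberg adjusted p under 0.05), and in CTL cells 71 of 73 rose, 1 fell and 1 was not called. The background is high. In RIPK3-/- cells 97.8% of 11798 genes were called, 49.3% higher and 48.5% lower, and in CTL cells 95.9% of 12055 genes, 48.2% higher and 47.6% lower. All 72 members tested in RIPK3-/- cells and 72 of the 73 in CTL cells, Mrps6 being the other, were also listed by the authors' test of the same contrast. For these J7 against J0 contrasts, the counts of called members, also by subgroup below, were therefore fixed by the listing and are no result. Their direction was not split as it was over all genes. The median log2 fold change of the members was 0.96 in RIPK3-/- and 0.84 in CTL cells, against 0.04 and 0.03 over all genes. A rise of at least 1 on the log2 scale was seen for 33 members (45.8%) in RIPK3-/- and 31 (42.5%) in CTL cells, against 22.6% and 19.8% of all genes. The 3 J7 values lay above the 3 J0 values without overlap for 70 of 72 members in RIPK3-/- and for 71 of 73 in CTL cells, where 97.2% and 95.7% of all genes did not overlap in one direction or the other. In bulk RNA, a change in the number of cells of a type and a change in RNA per cell cannot be told apart.

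**Figure D1:**
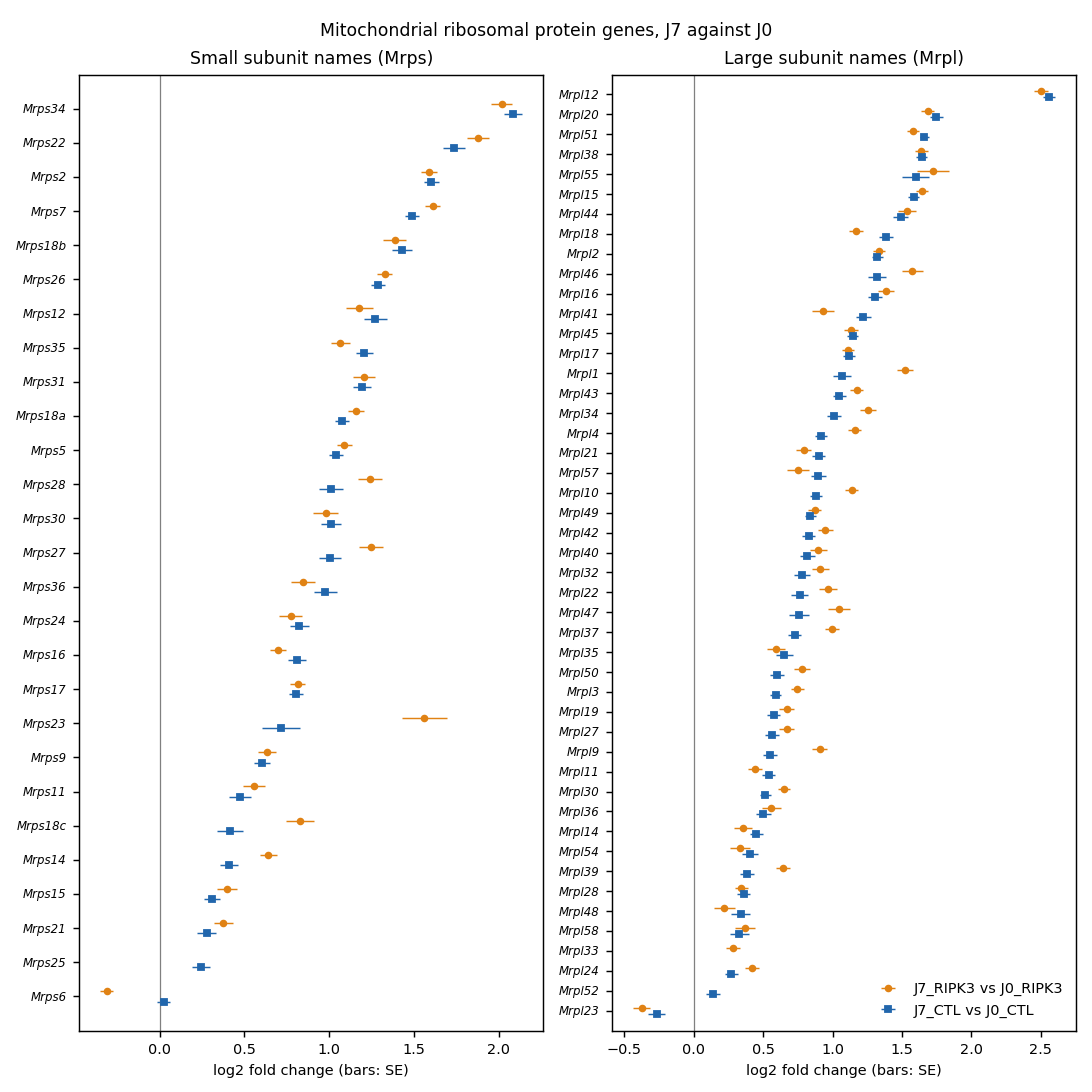
Log2 fold change of each member on differentiation (J7 over J0) with its standard error, for RIPK3-/- and CTL cells, ordered within the small and the large subunit names. Nearly all points lie right of 0, Mrpl12 and Mrps34 lie farthest out, and Mrpl23 lies left of 0 in both lines.

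Among the small subunit names, Mrps34 (ENSMUSG00000038880, chr17:24895116-24897502, plus strand) rose most. It encodes a protein found only in mitochondrial ribosomes and needed for the stability of the small subunit. Its levels were 91.6, 88.7 and 76.7 CPM in J7 RIPK3-/- against 19.6, 22.1 and 20.5 CPM in J0 RIPK3-/- libraries, and 91.9, 84.1 and 80.7 CPM in J7 CTL against 19.9, 18.8 and 19.9 CPM in J0 CTL libraries. The J7 libraries of both lines lay far above the J0 libraries, with log2 fold changes of 2.02 ± 0.06 in RIPK3-/- and 2.09 ± 0.05 in CTL cells (SE, adjusted p = 2.70e-18 and 1.81e-21). Mapk8ip3, which overlaps Mrps34 on the opposite strand, had a log2 fold change of -0.24 in CTL cells. Mrps22, another mitochondria-specific protein whose human counterpart is mutated in inherited respiratory chain deficiency, had 53.9, 55.4 and 49.5 CPM in J7 RIPK3-/- against 13.2, 14.8 and 14.2 CPM in J0 RIPK3-/- libraries, and 47.9, 52.9 and 50.9 CPM in J7 CTL against 16.5, 13.5 and 13.8 CPM in J0 CTL libraries. Again no J7 value reached down to a J0 value, and the log2 fold changes were 1.88 ± 0.06 in RIPK3-/- and 1.74 ± 0.07 in CTL cells (SE, adjusted p = 2.02e-17 and 9.08e-18). Mrps2, which has a bacterial counterpart, had 83.1, 84.9 and 82.2 CPM in J7 RIPK3-/- against 26.97, 26.9 and 27.6 CPM in J0 RIPK3-/- libraries, and 84.2, 83.6 and 84.5 CPM in J7 CTL against 26.7, 25.5 and 28.5 CPM in J0 CTL libraries. Its libraries were tight within each group, and the log2 fold changes were 1.59 in RIPK3-/- and 1.60 in CTL cells. Mrps7, a bacterial-type protein of the head of the subunit, rose by 1.61 in RIPK3-/- and 1.49 in CTL cells. Mrps12, which lies at the decoding centre, rose by 1.18 and 1.27, and Mrps5 by 1.09 and 1.04.

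The proteins found only in mitochondrial ribosomes and those with bacterial counterparts had different medians in the small subunit. The mitochondria-specific group had a median log2 fold change of 1.33 in RIPK3-/- cells, with 9 of 9 members higher, and of 1.20 in CTL cells, with 10 of 10 higher. In the group with bacterial counterparts the median was 0.73 in RIPK3-/- cells, with 13 of 14 higher and 1 lower, and 0.70 in CTL cells, with 13 of 14 higher. The difference between these groups was not tested. Large subunit names showed less of it, with medians of 0.94 and 0.91 in RIPK3-/- cells and 0.84 and 0.77 in CTL cells for the specific and the bacterial-type proteins. The 3 counterparts of bacterial S18 moved by different amounts: Mrps18b rose by 1.39 in RIPK3-/- and 1.43 in CTL cells, Mrps18a by 1.16 and 1.08, and Mrps18c by 0.83 and 0.42. For the medians above, Mrps18b was counted as mitochondria-specific, Mrps18c with the bacterial counterparts and Mrps18a in neither group. Of the members whose names and location differ, Mrps30 rose by 0.98 in RIPK3-/- and 1.01 in CTL cells, and Mrps36 by 0.85 and 0.98. Among the small subunit names, the smallest called rises in CTL cells were those of Mrps25 (0.24), Mrps21 (0.28), Mrps15 (0.31) and Mrps14 (0.41). Mrps25, of the mitochondria-specific group, had no counts in J7 RIPK3-/- libraries and is missing from the RIPK3-/- median.

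Among the large subunit names, Mrpl12 (ENSMUSG00000039640, chr11:120484613-120489065, plus strand) had the largest rise of all members tested. Its protein forms the stalk that recruits translation factors and also binds the mitochondrial RNA polymerase. Its levels were 142, 139 and 121 CPM in J7 RIPK3-/- against 23.6, 23.4 and 22.5 CPM in J0 RIPK3-/- libraries, and 138, 133 and 140.0 CPM in J7 CTL against 22.6, 20.96 and 24.2 CPM in J0 CTL libraries. The groups were far apart, with log2 fold changes of 2.50 ± 0.05 in RIPK3-/- and 2.56 ± 0.05 in CTL cells (SE, adjusted p = 5.29e-21 and 9.88e-25). Gm16755, which overlaps Mrpl12 on the opposite strand, had log2 fold changes of 1.53 ± 0.40 in RIPK3-/- and 1.64 ± 0.38 in CTL cells (SE). Mrpl10, which anchors Mrpl12 to the ribosome, rose less, by 1.14 in RIPK3-/- and 0.88 in CTL cells, and Mrpl11 at the stalk base by 0.44 and 0.54. Mrpl20, whose bacterial counterpart acts in assembly of the large subunit, had 98.6, 96.5 and 88.7 CPM in J7 RIPK3-/- against 29.3, 29.5 and 27.8 CPM in J0 RIPK3-/- libraries, and 84.5, 82.8 and 83.6 CPM in J7 CTL against 24.5, 23.3 and 24.5 CPM in J0 CTL libraries. Its log2 fold changes were 1.69 ± 0.05 in RIPK3-/- and 1.75 ± 0.04 in CTL cells, and no library overlapped. Of the mitochondria-specific proteins, Mrpl51 rose by 1.58 and 1.66, Mrpl38 by 1.64 and 1.64, and Mrpl55 by 1.73 and 1.60, in RIPK3-/- and CTL cells in that order. Mrpl44, which has an RNase III-like fold, rose by 1.54 in RIPK3-/- and 1.49 in CTL cells, and Mrpl45, which tethers the ribosome to the inner membrane, by 1.13 and 1.14. Mrpl3, which reaches towards the peptidyl transferase centre, rose by 0.75 and 0.59. Mrpl58 is a peptidyl-tRNA hydrolase that also works as a rescue factor for stalled ribosomes, and it rose by 0.37 and 0.33. Mrpl52 had the smallest called rise in CTL cells, 0.14 ± 0.05 (adjusted p = 0.014), and without J7 CTL library 1 it was 0.081 and not called (adjusted p = 0.13).

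A pair of members went against the others. Mrpl23 (ENSMUSG00000037772, chr7:142532686-142540747, plus strand), a protein at the exit of the peptide tunnel, had 26.2, 25.5 and 23.98 CPM in J7 RIPK3-/- against 32.7, 31.1 and 32.2 CPM in J0 RIPK3-/- libraries, and 26.5, 27.2 and 26.03 CPM in J7 CTL against 33.3, 30.3 and 29.2 CPM in J0 CTL libraries. The J7 values lay below all J0 values in both lines, with log2 fold changes of -0.38 ± 0.06 in RIPK3-/- (adjusted p = 5.45e-06) and -0.27 ± 0.06 in CTL cells (adjusted p = 0.000195). Mrpl23 has a processed copy in RefSeq, as do Mrpl27, Mrpl48 and Mrps36, and reads shared with a copy could not be told apart. Mrps6 (ENSMUSG00000039680, chr16:92058270-92112227, plus strand) had 151, 145 and 136 CPM in J7 RIPK3-/- against 179, 172 and 174 CPM in J0 RIPK3-/- libraries, and 174, 173 and 168 CPM in J7 CTL against 178, 156 and 157 CPM in J0 CTL libraries. The J7 values were lower in RIPK3-/- cells, with a log2 fold change of -0.31 ± 0.04 (adjusted p = 1.38e-07), while in CTL cells the groups overlapped, at 0.02 ± 0.04 (adjusted p = 0.558, or 0.00907 at a log2 fold change of 0.10 without J0 CTL library 1). Slc5a3, a solute transporter gene that lies within the Mrps6 span on the same strand, fell by 0.97 on the log2 scale in RIPK3-/- and by 0.19 in CTL cells. Reads of the overlapping stretches of this pair cannot be told apart.

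**Figure D2:**
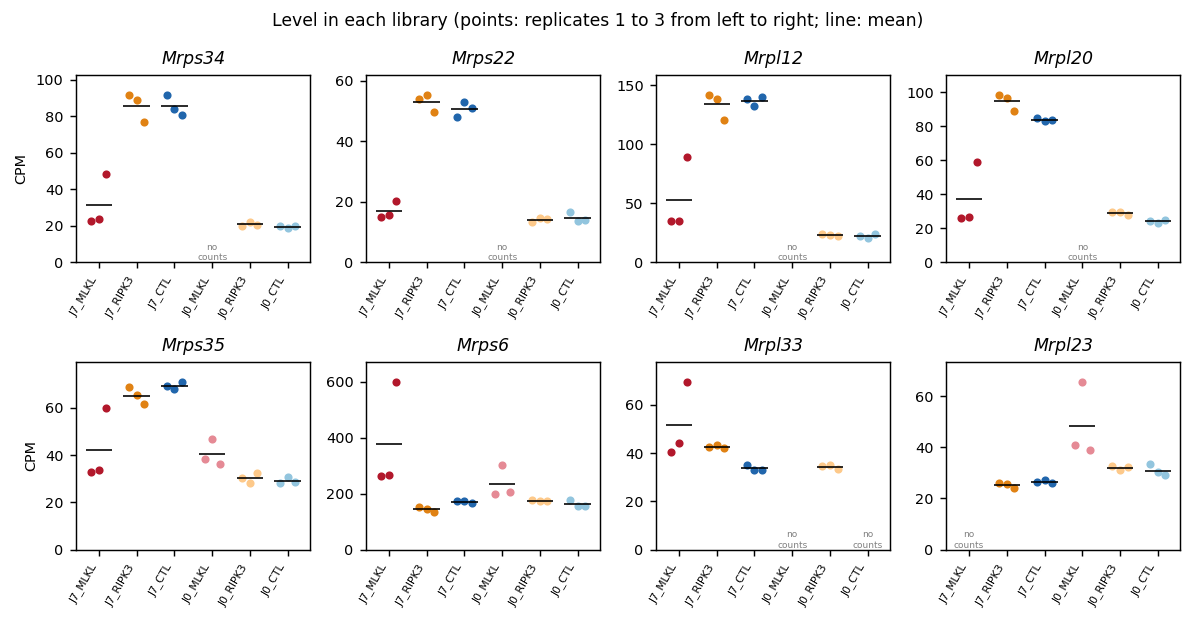
CPM of 8 members in each library, by group from J7 MLKL-/- on the left to J0 CTL on the right, with a line at the group mean. Mrps34, Mrps22, Mrpl12 and Mrpl20 are high in the J7 RIPK3-/- and J7 CTL libraries and low in both J0 groups with counts, Mrps6 and Mrpl23 are not, and library 3 of J7 MLKL-/- lies above its partners.

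Summed over the 71 members with counts in RIPK3-/- and CTL cells at both stages, mitochondrial ribosomal protein transcripts took 4828, 4734 and 4387 CPM in J7 RIPK3-/- and 4616, 4468 and 4563 CPM in J7 CTL libraries. The sums were 2318, 2349 and 2309 CPM in J0 RIPK3-/- and 2369.6, 2305 and 2258 CPM in J0 CTL libraries. As means, this was 4649.6 ± 232 CPM in J7 RIPK3-/- and 2325 ± 21.2 CPM in J0 RIPK3-/- libraries, and 4549 ± 74.98 CPM in J7 CTL and 2311 ± 56.3 CPM in J0 CTL libraries (SD, n = 3 each). The J7 sums were 2.00 times the J0 sums in RIPK3-/- and 1.97 times in CTL cells. The small subunit names gave 1.89 and 1.92 times, and the large ones 2.07 and 2.00 times. Over the same libraries the cytosolic ribosomal proteins went the other way, at 0.620 and 0.595 times, and the nuclear-encoded respiratory chain subunits were at 2.78 and 2.58 times.

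**Figure D3:**
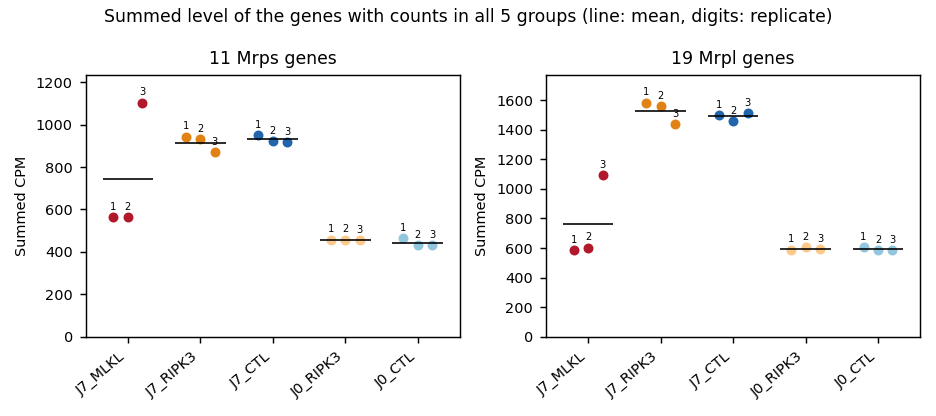
Summed CPM of the 11 small and 19 large subunit names that had counts in 5 of the 6 groups, 1 point per library, with a line at the group mean. J7 RIPK3-/- and J7 CTL libraries lie above both J0 groups shown, which are RIPK3-/- and CTL. J7 MLKL-/- library 3 lies far above libraries 1 and 2. These 2 lie near the J0 level of the other lines for the large names and above it for the small ones. The genes have J7 MLKL-/- counts only because the authors' test against J7 CTL called them, so a difference from J7 CTL was fixed by the listing.

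The rest of the mitochondrial translation apparatus was described with lists fixed by function. Of the assembly factors, 27 of 27 rose in RIPK3-/- cells (median log2 fold change 0.94) and 23 of 25 in CTL cells (median 0.72). Grsf1, an RNA-binding protein of mitochondrial RNA granules, rose by 1.77 and 1.503, and Tfb1m, the methyltransferase of the small ribosomal RNA, by 1.72 and 1.48, in RIPK3-/- and CTL cells in that order. Of the translation factors, 15 of 16 rose and 1 fell in RIPK3-/- cells (median 1.00), and 11 of 15 rose and 2 fell in CTL cells (median 0.54). The elongation factors Tufm and Gfm1 rose by 1.95 and 1.65 in RIPK3-/- cells and by 1.60 and 1.53 in CTL cells. The release factor gene Mtrf1l had -0.36 in RIPK3-/- and -0.35 in CTL cells. Of the aminoacyl-tRNA synthetases, 16 of 18 rose and 1 fell in RIPK3-/- cells (median 0.99), and 17 of 18 rose and 1 fell in CTL cells (median 0.82). The 6 mitochondrial ribosomal proteins that carry other names, such as Dap3 and Ptcd3, all rose in both lines, with medians of 0.65 and 0.64. Both mitochondrial ribosomal RNAs rose, mt-Rnr2 by 0.88 in RIPK3-/- and 0.64 in CTL cells and mt-Rnr1 by 0.22 and 0.33.

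The mitochondrial ribosome translates the mRNAs of mitochondrial DNA, and these were counted too. Of the mitochondrially encoded mRNAs, 7 of 8 rose and 1 fell in RIPK3-/- cells (median log2 fold change 0.22), and 2 of 10 rose and 7 fell in CTL cells (median -0.32). These lists hold different genes, and the difference between the lines was not tested for them. For the 8 mRNAs counted in both lines at both stages, RIPK3-/- sums were 17961 to 18327 CPM at J7 and 17073 to 18432 CPM at J0, which overlap. The CTL sums were 15050 to 15832 CPM at J7 and 16209 to 16763 CPM at J0. Nuclear-encoded respiratory chain subunits rose in 75 of 76 cases in RIPK3-/- (median 1.28) and in 74 of 76 in CTL cells (median 1.22). The cytosolic ribosomal proteins fell in 65 of 69 cases in RIPK3-/- (median -0.71) and in 68 of 73 in CTL cells (median -0.82). Of the regulators of mitochondrial biogenesis, 11 of 15 rose and 4 fell in RIPK3-/- cells, and 11 of 16 rose and 5 fell in CTL cells. The coactivator Ppargc1b rose by 5.58 in RIPK3-/- and 5.93 in CTL cells and the nuclear receptor Esrra by 1.78 and 1.60, whereas Ppargc1a fell by 0.78 and 1.96. Polrmt, the mitochondrial RNA polymerase that Mrpl12 binds, rose by 0.99 in RIPK3-/- and 0.91 in CTL cells. Proliferation markers fell in 10 of 10 cases in RIPK3-/- cells, with sums of 239 to 257 CPM at J7 and 578 to 610.2 CPM at J0, and were mixed in CTL cells, with 5 higher and 4 lower of 10 and sums of 356 to 357 CPM at J7 and 289 to 293 CPM at J0. Preadipocyte markers fell in 9 of 9 cases in RIPK3-/- and in 8 of 8 in CTL cells. The part of these markers in the members' values was not tested.

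**Figure D4:**
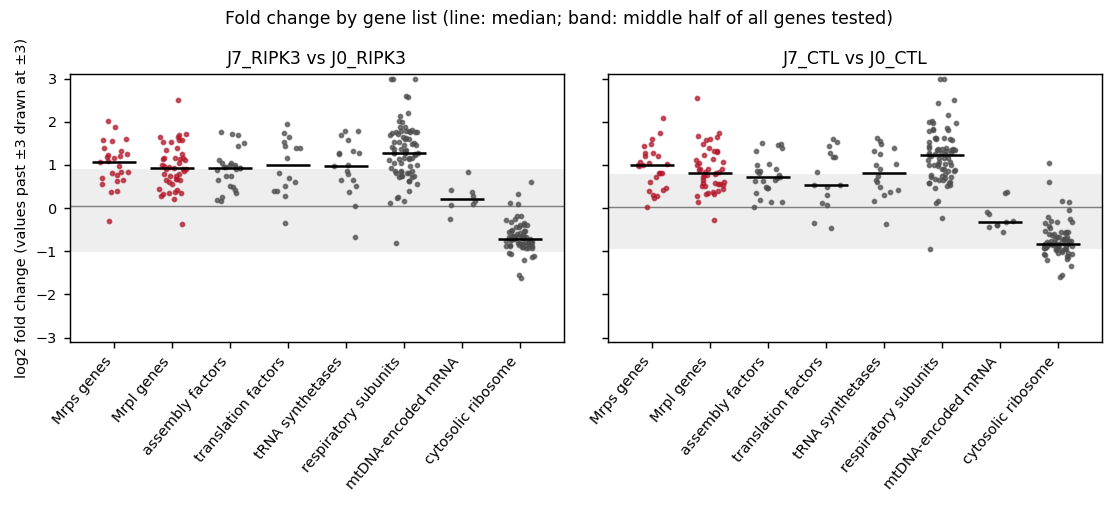
Log2 fold change of every tested gene of each list on differentiation (J7 over J0), for RIPK3-/- cells and for CTL cells. A line marks the median of the list and the grey band the interquartile range of all genes tested. The members lie mostly above 0, as do the assembly factors and respiratory chain subunits, and the cytosolic ribosomal proteins lie mostly below.

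How the members differ from each other was alike in both lines. Across 71 members the log2 fold changes in RIPK3-/- and CTL cells had a Pearson correlation of 0.94 (Spearman 0.92), against 0.96 across all genes. The points are genes measured in the same libraries and are not independent replicates. Gene length had no such relation with the fold change in CTL cells (Pearson -0.01 across 73 members). The members are spread over 16 chromosomes, with 11 on chromosome 11. Members with the ETS core had a median log2 fold change of 1.03 in CTL cells against 0.82 without it, which was 0.78 against 0.83 for the NRF1 motif and 0.78 against 0.84 for the YY1 motif. Of the 66 promoters, 25 (37.9%) had the start of a gene on the opposite strand within 1000 bases upstream, against 16.1% of listed protein-coding genes, 24.2% of respiratory chain subunits and 18.2% of cytosolic ribosomal proteins. One such pair joins members: the starts of Mrps11 and Mrpl46 lie 42 bases apart, yet Mrps11 rose by 0.56 in RIPK3-/- and 0.47 in CTL cells, and Mrpl46 by 1.57 and 1.32. Of 19 such neighbours tested in CTL cells, 12 rose and 6 fell, with a median log2 fold change of 0.46 against 0.90 for their members. Further, 21 members overlap another listed gene, 18 of them on the opposite strand, and since no source used here states strand-specific counting, their reads may include those of the partner.

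Before differentiation most members were close in RIPK3-/- and CTL cells. At J0, 4 of 72 members were higher in RIPK3-/- cells, 10 were lower and 58 were not called, with a median log2 fold change of -0.03 against -0.01 over all genes. The background was 55.8% of 11044 genes called, 28.3% higher and 27.4% lower. Scaling by library totals gave 6 higher and 7 lower, DESeq2 gave 4 and 7, and the authors' deposited table lists 4 higher and 1 lower, so the count of lower members depends on the fit. Mrps23, a mitochondria-specific small subunit protein, had 3.03, 4.31 and 3.44 CPM in J0 RIPK3-/- against 4.83, 5.39 and 4.92 CPM in J0 CTL libraries. Its groups did not overlap, and its log2 fold change of -0.52 ± 0.14 (adjusted p = 0.00376) was the only one of a member beyond 0.5 in either direction. Lack of overlap was seen for 22.2% of the members and for 60.9% of all genes. Mrpl20 had 29.3, 29.5 and 27.8 CPM in J0 RIPK3-/- and 24.5, 23.3 and 24.5 CPM in J0 CTL libraries, a log2 fold change of 0.23 ± 0.06 (adjusted p = 0.00149). The other higher members were Mrpl18 (0.23), Mrps14 (0.20) and Mrps25 (0.16). The other lower ones lay between -0.21 (Mrpl57) and -0.13 (Mrpl24), among them Mrpl45 at -0.18 and Mrps18a at -0.16. Over the same libraries, 65 of 70 cytosolic ribosomal proteins were lower in RIPK3-/- cells (median -0.30), and 10 of 10 proliferation markers were higher, with sums of 578 to 610.2 CPM in RIPK3-/- and 289 to 293 CPM in CTL libraries. Their part in the members' values was not tested. Without J0 CTL library 2, 6 members were lower. The calls of Mrpl38, Mrps15 and Mrpl24 were each lost in 6 to 8 of 12 alternatives, that of Mrps25 without J0 CTL library 3 or J0 RIPK3-/- library 2 or 3, and that of Mrpl50 without J0 RIPK3-/- library 3.

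After differentiation more members were called than at J0, most of them upward and by small amounts. The share called higher was near that over all genes, and the share called lower was below it. At J7, 23 of 72 members were higher in RIPK3-/- cells, 7 were lower and 42 were not called, with a median log2 fold change of 0.04 against 0.00 over all genes, where 59.1% of 11170 genes were called, 29.6% higher and 29.5% lower. Mrps18c, the small subunit counterpart of bacterial S18, had 26.9, 27.4 and 22.8 CPM in J7 RIPK3-/- against 16.8, 16.97 and 16.9 CPM in J7 CTL libraries. The groups did not overlap, and the log2 fold change was 0.62 ± 0.07 (adjusted p = 2.87e-07). Lack of overlap was seen for 33.3% of the members and for 62.5% of all genes. Mrpl1, the protein of the mobile L1 stalk, had 58.1, 57.2 and 53.4 CPM in J7 RIPK3-/- against 35.97, 40.02 and 41.8 CPM in J7 CTL libraries, again without overlap, with a log2 fold change of 0.53 ± 0.05 (adjusted p = 3.39e-08). Mrps14 (0.46), Mrpl39 (0.36), Mrpl33 (0.35) and Mrps23 (0.35) followed. The lower members included Mrpl57 (-0.34), Mrpl41 (-0.30), Mrps6 (-0.24), Mrpl45 (-0.17) and Mrps18b (-0.15). The call of Mrps18b was lost with DESeq2 and without J7 CTL library 3 or J7 RIPK3-/- library 3. Mrpl45 and Mrpl57 were called lower and Mrpl20 and Mrps14 higher at both stages, in comparisons that share no library. With 55.8% of all genes called at J0 and 59.1% at J7, such repeats can be common. Their share over all genes is not given here, so these repeats are only described. The authors' deposited tables list Mrpl20 and Mrps14 at both stages but Mrpl45 and Mrpl57 at J7 only. Mrpl38 was also called lower at both stages, but its J0 call was lost in 8 of 12 alternatives (adjusted p = 0.0950 with library totals and 0.0806 with the authors' size factors) and its J7 call without J7 CTL library 3 (adjusted p = 0.0605). Of the mitochondrially encoded mRNAs, 9 of 10 were higher in J7 RIPK3-/- libraries (median 0.39), and 10 of 10 proliferation markers were lower, with sums of 239 to 257 CPM in RIPK3-/- and 356 to 357 CPM in CTL libraries. The summed level of the members was close, at 4649.6 ± 232 CPM in J7 RIPK3-/- and 4549 ± 74.98 CPM in J7 CTL libraries (SD, n = 3 each), and these ranges overlap.

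The differentiation response itself was called larger in RIPK3-/- than in CTL cells for some members. The total share of members called was below that over all genes. By direction, the share called higher was above that over all genes in the fit given here, and the share called lower was below it. The test of the difference, the log2 fold change in RIPK3-/- minus that in CTL cells, called 17 of 71 members higher and 3 lower, against 39% of 11027 genes called (18.4% higher and 20.6% lower), with a median of 0.07 against 0.01 over all genes. Mrps23 differed most: it had 11.3, 11.5 and 9.55 CPM in J7 RIPK3-/- and 3.03, 4.31 and 3.44 CPM in J0 RIPK3-/- libraries, but 8.45, 8.97 and 8.20 CPM in J7 CTL and 4.83, 5.39 and 4.92 CPM in J0 CTL libraries. It was below CTL at J0 and above CTL at J7, and the difference was 0.87 ± 0.17 (adjusted p = 0.000193). Mrpl1 had 18.5, 20.2 and 18.9 CPM in J0 RIPK3-/- and 18.6, 17.2 and 18.8 CPM in J0 CTL libraries, which overlap, and its difference of 0.48 ± 0.09 (adjusted p = 7.53e-05) lies in the J7 values given above. Mrps18c, with 13.4, 15.2 and 13.9 CPM in J0 RIPK3-/- and 12.6, 12.7 and 11.5 CPM in J0 CTL libraries, had a difference of 0.43 ± 0.11 (adjusted p = 0.00254). Smaller positive differences included Mrpl9 (0.38), Mrpl47 (0.31), Mrpl37 (0.29) and Mrpl10 (0.28). The 3 negative ones were Mrps6 (-0.31 ± 0.06, adjusted p = 7.11e-05), Mrpl41 (-0.27) and Mrpl18 (-0.19). The calls of Mrpl41 and Mrpl18 were lost in 6 and 7 of 17 alternatives, and that of Mrpl47 without J0 RIPK3-/- library 3 or J7 CTL library 1 or 2. For Slc5a3, which overlaps Mrps6, the difference was -0.76. Scaling by library totals alone called 11 members higher, and DESeq2 called 1 lower, as did the fits without J0 CTL library 3, J0 RIPK3-/- library 2 or J0 RIPK3-/- library 3.

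**Figure D5:**
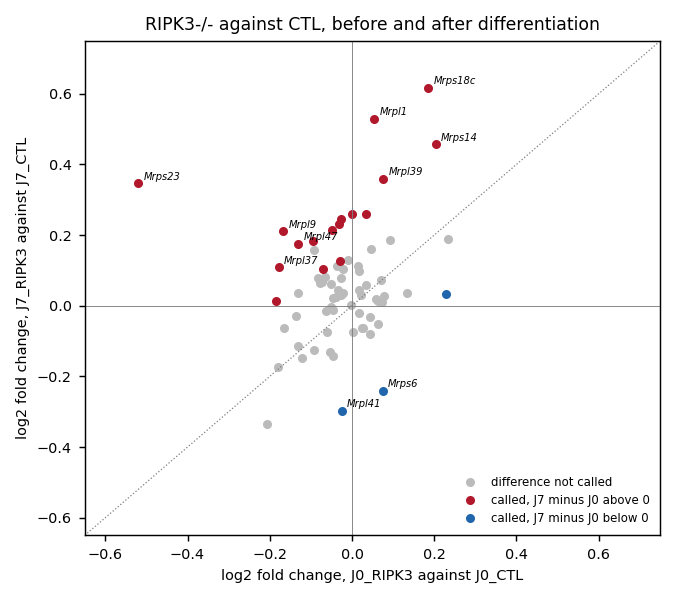
Each point is a member, with its log2 fold change of RIPK3-/- over CTL at J0 on the x axis and at J7 on the y axis, coloured by the call of the difference in differentiation response. The 2 comparisons share no library. Most points lie near 0 on both axes, with Mrps23 at the far left and Mrps18c and Mrpl1 at the top.

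In differentiated MLKL-/- cells the listed members were lower than in CTL cells, with a pair of exceptions. The authors listed 31 of the 74 members (41.9%) in this contrast, against 48.0% of all 15194 genes. The other members have no J7 MLKL-/- counts and cannot be described here. All 31 members with counts in J7 MLKL-/- libraries are there because the authors' test of this same contrast called them, so a difference was fixed by the listing and only direction and size are described. In the fit 28 were lower, 2 were higher and 1, Mrpl18, was not called, where 94.9% of 7263 listed genes were called, 48.5% higher and 46.4% lower. By the authors' deposited table, 29 of the 31 were lower, against 48.3% of all genes listed there. The median log2 fold change was -0.84, against 0.17 over all listed genes, a centre that lay at 0.07 with scaling by library totals and at 0.27 with DESeq2. Library 3 of J7 MLKL-/- stood apart: its members lay at a median of 1.82 times the mean of libraries 1 and 2, above it for 31 of 31. Without it the median was -1.28, with 29 lower and 2 higher. With library 1 or 2 left out in its place, 14 and 15 members were lower, and with a CTL library left out 16 to 17. The same library held 1.57 times the level of its partners over genes below the lower quartile of length and 0.71 times over those above the upper quartile, and 36 of the 74 members (48.6%) lie below the lower quartile. The part of transcript length in the members' values was not tested.

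Mrps22 was the most reduced member, with 14.99, 15.6 and 20.2 CPM in J7 MLKL-/- against 47.9, 52.9 and 50.9 CPM in J7 CTL libraries. All 3 MLKL-/- libraries lay well below CTL, and the log2 fold change was -1.47 ± 0.14 (adjusted p = 0.000153), or -1.66 without library 3. Mrps2 had 28.2, 29.5 and 31.4 CPM in J7 MLKL-/- against 84.2, 83.6 and 84.5 CPM in J7 CTL libraries, a log2 fold change of -1.400 ± 0.09 (adjusted p = 2.85e-05; -1.48 without library 3), and library 3 was close to its partners there. Mrps34 had 22.5, 23.5 and 48.5 CPM in J7 MLKL-/- against 91.9, 84.1 and 80.7 CPM in J7 CTL libraries, with library 3 between the rest of its group and CTL, and a log2 fold change of -1.33 ± 0.31 (adjusted p = 0.00574), or -1.83 without library 3. Mrpl12 showed the same spread, at 34.7, 35.1 and 89.2 CPM in J7 MLKL-/- against 138, 133 and 140.0 CPM in J7 CTL libraries, with a log2 fold change of -1.26 ± 0.38 (adjusted p = 0.0164), or -1.90 without library 3. Of the large subunit names, Mrpl1 (-1.11), Mrpl44 (-1.10) and Mrpl20 (-1.06) followed, and of the small ones Mrps18b (-1.01), and the smallest called reductions were those of Mrpl3 (-0.45) and Mrpl10 (-0.48). The call of Mrpl20 was lost without MLKL-/- library 1 or 2, that of Mrpl3 without either of these or CTL library 1, and that of Mrpl10 without either of these or any CTL library.

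The exceptions were Mrps6 and Mrpl33. Mrps6 had 264, 267 and 599.7 CPM in J7 MLKL-/- against 174, 173 and 168 CPM in J7 CTL libraries, so every MLKL-/- library was above CTL and library 3 far above its partners (log2 fold change 1.24 ± 0.33, adjusted p = 0.0107, and 0.70 without library 3). Slc5a3, inside the Mrps6 span, rose by 1.72 in the same contrast. Mrpl33, a small bacterial-type protein of the large subunit, had 40.6, 44.3 and 69.4 CPM in J7 MLKL-/- against 35.1, 33.04 and 32.8 CPM in J7 CTL libraries, again without overlap (log2 fold change 0.72 ± 0.21, adjusted p = 0.0158, and 0.40 without library 3). Its call was lost without J7 CTL library 2 or 3 (adjusted p = 0.058 and 0.0599). In this contrast 100% of the 31 members and 94.9% of 7263 listed genes did not overlap.

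Summed over the 31 members, the levels were 1189.8, 1213 and 2266 CPM in J7 MLKL-/- and 2485, 2416 and 2462 CPM in J7 CTL libraries, with 2568, 2534 and 2351 CPM in J7 RIPK3-/- libraries. Libraries 1 and 2 of MLKL-/- lay far below CTL, and library 3 lay below it by less. The 11 small subunit names gave 563, 565 and 1103 CPM in J7 MLKL-/- against 952, 922 and 918 CPM in J7 CTL libraries, so here library 3 exceeded CTL, with Mrps6 alone at 599.7 CPM of it. The 20 large subunit names gave 627, 648 and 1162 CPM in J7 MLKL-/- against 1534, 1493 and 1543 CPM in J7 CTL libraries. Other lists in the same contrast are listed under the same condition. Assembly factors were lower in 11 of 11 cases, translation factors in 8 of 9 and respiratory chain subunits in 21 of 27, while mitochondrially encoded mRNAs were higher in 10 of 10 (median log2 fold change 1.30). Of the adipocyte markers 11 of 12 were lower (median -2.63), with the sums given above, and of the preadipocyte markers 7 of 7 were higher, at 1980.5 to 3219 CPM in J7 MLKL-/- and 374 to 384 CPM in J7 CTL libraries. None of the 12 adipocyte markers was at 0 in the J7 MLKL-/- libraries. Of the macrophage markers, 2 of 7 were tested and both were higher, Cd14 at 41.8 ± 13.3 CPM in J7 MLKL-/- and 10.7 ± 1.51 CPM in J7 CTL libraries and Csf1r at 0.760 ± 0.123 CPM in J7 MLKL-/- and 0.278 ± 0.0408 CPM in J7 CTL libraries (SD, n = 3 each). The part of these marker shifts in the members' values was not tested.

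In MLKL-/- cells the change on differentiation can be read for Mrps6 and Mrps35 only, and neither was called, where 66.7% of 3075 genes were (35.8% higher and 30.9% lower). Mrps35, a mitochondria-specific small subunit protein, had 32.7, 33.8 and 60.1 CPM in J7 MLKL-/- against 38.4, 46.8 and 36.4 CPM in J0 MLKL-/- libraries. The groups overlapped, with library 3 above and libraries 1 and 2 below all J0 libraries (log2 fold change 0.03 ± 0.26, adjusted p = 0.93), and without library 3 it was -0.33 (adjusted p = 0.0386). In CTL cells Mrps35 rose by 1.21, with 69.3, 67.99 and 70.9 CPM at J7 and 28.2, 30.8 and 28.4 CPM at J0, and the difference between the MLKL-/- and CTL responses was -1.23 ± 0.28 (adjusted p = 0.00251; 65.3% of 3033 genes were called, 39% higher and 26.3% lower, with a median over all of them of 0.30 that moved to -0.02 with DESeq2). It was -1.47 without J7 MLKL-/- library 3 and J0 MLKL-/- library 2. Mrps6 had 264, 267 and 599.7 CPM in J7 MLKL-/- and 198, 302 and 205 CPM in J0 MLKL-/- libraries, a log2 fold change of 0.66 ± 0.36 (adjusted p = 0.153), and its difference from the CTL response was 0.58 ± 0.40 (adjusted p = 0.219). Without both of those libraries these were called, at 0.33 (adjusted p = 1.21e-05) and 0.28 (adjusted p = 0.000695).

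Before differentiation 3 members had counts in MLKL-/- cells, all of them listed because the authors' test called this contrast, and all 3 were higher than in CTL cells, where 83.6% of 3824 listed genes were called, 40.4% higher and 43.2% lower. The authors listed 3 of the 74 members (4.05%) in this contrast, against 20.1% of all 15194 genes. Mrpl23 had 40.9, 65.6 and 38.98 CPM in J0 MLKL-/- against 33.3, 30.3 and 29.2 CPM in J0 CTL libraries, a log2 fold change of 0.68 ± 0.19 (adjusted p = 0.00964). Mrps6 had 198, 302 and 205 CPM in J0 MLKL-/- against 178, 156 and 157 CPM in J0 CTL libraries (0.55 ± 0.15, adjusted p = 0.00926), and Mrps35 had 38.4, 46.8 and 36.4 CPM in J0 MLKL-/- against 28.2, 30.8 and 28.4 CPM in J0 CTL libraries (0.51 ± 0.10, adjusted p = 0.00274). For each of the 3 no library overlapped between the groups, but neither did any for 86.0% of the 3824 listed genes. J0 MLKL-/- library 2 was the highest of its group for each of the 3. This library held 1.27 times the level of its partners over genes below the lower quartile of length. Over those above the upper quartile it held 0.85 times, and the part of length was not tested. Without library 2 the log2 fold changes were 0.40 for Mrpl23, 0.34 for Mrps6 and 0.40 for Mrps35, all still called.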

How the data were processed

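RNA-seq was made from total RNA of 3T3-L1 cells, 3 libraries in each of 6 groups. Per the submitters' processing notes, reads were handled with FastQC 0.11.9, HISAT2, featureCounts 1.5.0-p3 and DESeq2 on mm10; strandedness is not given in the sources used here. The 7 tables of comparisons deposited by the authors hold raw read counts per gene, with counts divided by size factors (normalised signal), FPKM, a log2 fold change, a p-value and an adjusted p, and gene coordinates. A gene is listed only where the authors' adjusted p was under 0.05, so groups differ in which genes have counts. Counts repeated between tables were equal in all 88950 cases. The 14 enrichment tables were not used.

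Library totals were recovered from each gene's count, FPKM and length, and CPM values use them. Raw counts were fitted per comparison with edgeR 4.0.16 (R 4.3.3; filterByExpr, TMM, quasi-likelihood F test), and p-values were Benjamini-Hochberg adjusted over all genes tested, with a call at 0.05. Errors of log2 fold changes are standard errors derived from the F statistic. On simulated counts for J7 CTL against J0 CTL with 11939 genes, 91% of genes changed by 0.5 and 100% of those changed by 1 (log2) were recovered. Alternatives were DESeq2 1.42.0, other scalings and filters, the replicate number as a block, and leaving out libraries. Members and lists were chosen with earlier results of these data known. Named members were, per comparison and name class, the 4 highest and 4 lowest called, those of extreme FPKM, and a panel fixed by role; Mrps11 and Mrpl46, as a pair with neighbouring starts, and a few members beside them were named after their values were seen. Macrophage and skeletal muscle markers were checked as well: 2 of 7 macrophage markers had counts in both CTL and RIPK3-/- cells at both stages, at 5.79 to 7.10 CPM in J7 RIPK3-/- and 3.65 to 4.10 CPM in J7 CTL libraries, and 3 of 7 muscle markers summed to 56.1 to 60.3 CPM in J7 RIPK3-/- and 37.1 to 40.1 CPM in J7 CTL libraries. Promoters come from RefSeq, GRCm38.p6. Protein sequences were not used here.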

Additional observations from a re-analysis of the deposited data

Results flagged for a closer look

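The members below had a differentiation response that differed between RIPK3-/- and CTL cells by the test of the difference itself (edgeR's quasi-likelihood test, adjusted p under 0.05), given as the log2 fold change in RIPK3-/- minus that in CTL cells. Among the small subunit names these were Mrps23 (0.87), Mrps18c (0.43), Mrps27 (0.26) and Mrps14 (0.25), with a larger rise in RIPK3-/- cells, and Mrps6 (-0.31), which fell there. Among the large subunit names they were Mrpl1 (0.48), Mrpl9 (0.38), Mrpl47 (0.31), Mrpl37 (0.29), Mrpl10 (0.28), Mrpl3 (0.18) and Mrpl30 (0.16), with a larger rise in RIPK3-/- cells, and Mrpl41 (-0.27) and Mrpl18 (-0.19), with a smaller one. A further 6 large subunit names called higher, at 0.20 to 0.29, are not named here. Of 17 alternatives, 7 each ended the calls of Mrps27 and Mrpl18, 6 each those of Mrpl30 and Mrpl41, 5 that of Mrpl3 and 3 that of Mrpl47. Scaling by library totals was among them for Mrps27, Mrpl30 and Mrpl3 (adjusted p = 0.0708, 0.112 and 0.0915), and DESeq2 for Mrpl18 and Mrpl41 (adjusted p = 0.113 and 0.0660), and the rest each left out 1 library. Another difference of this kind concerned Mrps35 between MLKL-/- and CTL cells, at -1.23, in a comparison that holds the J7 MLKL-/- library 3 and the J0 MLKL-/- library 2 that stood apart from their groups. No cause was tested for any of these.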

How the results depend on the processing

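Of the alternatives computed for counts of members, 233 kept the count within 1.5 times and 25 did not, and for single members 1534 values kept direction and call, 119 lost the call, 9 gained one and 6 changed sign. Of 4 ratios of summed levels, 3 moved by less than 1 SD with TMM-scaled totals, and that of J7 over J0 CTL moved to 1.91. Requiring a log2 change beyond 0.5 left 0 members lower on differentiation in RIPK3-/- and in CTL cells, 0 higher and 1 lower in J0 RIPK3-/- against J0 CTL, 2 higher and 0 lower in J7 RIPK3-/- against J7 CTL, and 1 higher and 0 lower in the difference between the RIPK3-/- and CTL responses. For that difference, scaling by library totals alone gave 11 higher and DESeq2 gave 1 lower. Without J0 MLKL-/- library 2 and J7 MLKL-/- library 3 together, 1 member was higher and 1 lower between J7 and J0 MLKL-/- cells, and 1 was higher in the difference from CTL.

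Leaving out each library in turn gave 70 to 72 members higher on differentiation in CTL cells, 6 to 10 lower in J0 RIPK3-/- against J0 CTL (6 without J0 CTL library 2), 16 to 27 higher in J7 RIPK3-/- against J7 CTL, and 13 to 18 higher and 1 to 3 lower in the difference between responses (1 lower without J0 CTL library 3, J0 RIPK3-/- library 2 or J0 RIPK3-/- library 3). In J7 MLKL-/- against J7 CTL it gave 1 to 2 higher and 14 to 29 lower, with 14 and 15 lower without MLKL-/- libraries 1 and 2, and 16 to 17 without a CTL library; between J7 and J0 MLKL-/- cells it gave 0 to 1 lower, with 1 without J7 MLKL-/- library 3. The Mrps6 change in CTL cells was -0.0037 to 0.10 with a library left out (-0.0037 without J0 CTL library 2). The Mrps35 change in MLKL-/- cells was -0.029 with the replicate block, -0.33 to 0.17 with a library left out, -0.03 and -0.04 without J0 MLKL-/- libraries 1 and 3, -0.33 without J7 MLKL-/- library 3, and -0.24 without both libraries that stood apart. The cause was not tested. Same-numbered libraries did not deviate together (correlations of -0.81 to 0.66, over 0.1 for all pairs in 0 of 7 comparisons), so the numbers are taken as names. Both ends of that range come from J7 against J0 MLKL-/- cells. There the libraries that stood apart, J7 MLKL-/- library 3 and J0 MLKL-/- library 2, deviated together, with a correlation of 0.86. With the replicate block 127 single results kept their call, 3 lost it, 1 gained it and 1 changed sign. The authors' size factors were not run for the differences between responses, since no table holds the 4 groups. Depth limits Mrps23 most, with 77 counts in its lowest library.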
